A study of Mus musculus with 16 samples.

Results

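Periostin (Postn) and 9 other genes of the non-collagen extracellular matrix were followed through the 8 peak lists of this ChIP-seq study. The genes were taken by name from the GENCODE M21 annotation of mm10 (GRCm38), as 10 of its 21938 protein-coding genes on assembled chromosomes. The list was chosen by a measured value, the missing Pol II promoter peak of Postn in knockout fibroblasts. That loss, and every other Pol II value of the genes in these fibroblasts, is therefore given below as a description. ChIP-seq recovers the DNA bound to a protein or a modified histone. Here it was done with an antibody against RPB1, the largest subunit of RNA polymerase II (Pol II), and with an antibody against histone H2B carrying a single ubiquitin (H2Bub1).

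The samples were Atxn7l3+/+ (WT) and Atxn7l3-/- (KO) cells of the DBA/2 x C57BL/6 strain. ATXN7L3 is an adaptor that the deubiquitylating enzymes need to take ubiquitin off H2B. Mouse embryonic stem cells (mESCs) grew with LIF, 1 µM PD0325901 and 3 µM CHIR99021 after removal of feeders, and mouse embryonic fibroblasts (MEFs) were made from E10.5 embryos and received no treatment. Both genotypes came from crosses of heterozygous mice, each mESC line grew out of an individual blastocyst, and the study describes its KO fibroblasts as MEF-like cells of abnormal shape. Each combination of cell type, genotype and antibody is 1 library, which leaves every difference below without replicates and without a p-value. Less Pol II per cell and fewer cells with Pol II at a gene cannot be told apart in such bulk samples.

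The extracellular matrix is the secreted scaffold around cells, and fibroblasts are its main builders. Beside collagens it holds matricellular proteins, which modulate how cells attach and respond to signals, large adhesive glycoproteins and proteoglycans, which bind integrins, water and growth factors, and the elastic fibre, in which elastin is deposited on fibrillin microfibrils and crosslinked by lysyl oxidase. Pol II accumulates just after the transcription start site (TSS) of active genes and is found again through the gene body and beyond the cleavage site, and H2Bub1 is laid down over bodies of transcribed genes.

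Among the matricellular genes, Postn (ENSMUSG00000027750) lies at chr3:54361109-54391037 on the plus strand, and Sparc, the collagen-binding osteonectin gene, at chr11:55394500-55423183 on the minus strand. Tnc, which encodes tenascin-C, lies at chr4:63959785-64047015 on the minus strand. The thrombospondin genes are Thbs1 at chr2:118111876-118127133 on the plus strand and Thbs2 at chr17:14665500-14694235 on the minus strand. Fn1, the fibronectin gene, lies at chr1:71585520-71653200 and Vcan, which encodes the hyaluronan-binding proteoglycan versican, at chr13:89655312-89742509, both on the minus strand. The elastic fibre genes are Fbn1 (fibrillin-1) at chr2:125300594-125507993, Eln (elastin) at chr5:134702593-134747323 and Lox (lysyl oxidase) at chr18:52516067-52529867, all on the minus strand.

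The shortest of the 10 is Lox with 13.8 kb and the longest Fbn1 with 207 kb. In 7 of the 10, the promoter window, 1000 bp to each side of the TSS, also holds an annotated gene on the opposite strand, and ChIP-seq does not tell strands apart. Postn, Sparc and Thbs2 have none.

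RefSeq promoter sequences were at hand for 6 of the 10 genes (Postn, Sparc, Tnc, Thbs2, Vcan and Fbn1), and not for Thbs1, Fn1, Eln and Lox. The 250 bases before the RefSeq start (GRCm38.p6, 5′ to 3′ on the strand of the gene) are shown for 4 of them, chosen after their values were seen: Postn, without a KO peak in MEFs, Thbs2 and Vcan, with the largest falls among the 7 genes with a peak in both genotypes, and Tnc, whose fold changed least among those 7. Postn and Tnc each have 2 RefSeq starts in the table, and the one nearest to the start of the gene record is shown. Capitals mark each match, on either strand, to the TATA box TATAAA, to the CAAT box CCAAT, to the GC box GGGCGG, to the AP-1 motif TGANTCA, to the TEAD motif GGAATG or to the SMAD motif CAGACA. Postn at chr3:54360857-54361106 on the plus strand, Thbs2 at chr17:14694263-14694512, Vcan at chr13:89742513-89742762 and Tnc at chr4:64047016-64047265 on the minus strand read:
Postn: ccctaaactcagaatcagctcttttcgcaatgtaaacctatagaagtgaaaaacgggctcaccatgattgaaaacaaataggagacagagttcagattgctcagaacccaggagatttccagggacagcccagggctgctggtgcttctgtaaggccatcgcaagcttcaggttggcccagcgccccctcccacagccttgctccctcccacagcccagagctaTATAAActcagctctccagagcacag
Thbs2: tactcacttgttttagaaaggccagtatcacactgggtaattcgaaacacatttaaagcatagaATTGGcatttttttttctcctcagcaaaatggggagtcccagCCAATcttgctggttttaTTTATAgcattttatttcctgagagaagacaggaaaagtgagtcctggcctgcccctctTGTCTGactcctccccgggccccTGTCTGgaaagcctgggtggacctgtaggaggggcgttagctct
Vcan: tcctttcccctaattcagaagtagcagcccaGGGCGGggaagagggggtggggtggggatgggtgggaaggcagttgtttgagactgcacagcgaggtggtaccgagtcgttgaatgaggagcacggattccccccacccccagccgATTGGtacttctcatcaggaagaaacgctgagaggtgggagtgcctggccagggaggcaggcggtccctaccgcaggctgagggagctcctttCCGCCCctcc
Tnc: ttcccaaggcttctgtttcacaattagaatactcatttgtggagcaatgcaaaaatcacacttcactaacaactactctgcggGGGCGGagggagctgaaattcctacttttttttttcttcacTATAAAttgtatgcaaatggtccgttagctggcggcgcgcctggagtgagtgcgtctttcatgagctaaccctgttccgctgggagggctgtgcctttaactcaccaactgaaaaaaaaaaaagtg

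Postn holds a single capitalised match, TATAAA on the strand of the gene at positions -26 to -21, counted back from -1 at the base before the start. Tnc holds TATAAA on the same strand at -126 to -121 and a GC box at -167 to -162. Thbs2 holds TATAAA on the opposite strand at -126 to -121, CCAAT once on each strand and CAGACA at 2 positions. Vcan holds GGGCGG once on each strand and CCAAT once on the opposite strand, and no TATAAA. None of the 4 windows holds TGANTCA or GGAATG. The window of the other RefSeq start of Postn, at -1842 bp from the gene record start, holds none of the motifs, and that of Tnc, at 79 bp, also holds CAGACA on the opposite strand. The E-box CANNTG, which is not capitalised, is found at 3 positions in Tnc, at 1 each in Thbs2 and Vcan, and not in Postn. In all 32851 RefSeq promoters of the table, windows of the same 250 bases hold TATAAA in 12.4%, CCAAT in 33.8%, GGGCGG in 32.7%, TGANTCA in 6.75%, GGAATG in 12.6%, CAGACA in 17.1% and CANNTG in 66.2%. The G and C content was 52.0% in Postn, 46.8% in Thbs2, 44.8% in Tnc and 62.4% in Vcan, against a median of 52.4% over the table. A match is a description of the letters and not a binding site.

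The Pol II lists held 17074 peaks in WT and 11963 in KO mESCs and 45870 and 32232 in WT and KO MEFs, and the H2Bub1 lists between 19725 and 48952. The lists do not give the number of reads behind them. Of the targeted Atxn7l3 gene, H2Bub1 peaks covered 100% in WT mESCs and, with a gap of 2750 bp, 62.5% in KO mESCs, and Pol II peaks were called at its promoter in all 4 Pol II lists. In MEFs the Atxn7l3 gene was covered over 22.0% in WT and 65.3% in KO, so the peaks do not check the genotype labels there. All 6 fibroblast markers (Col1a1, Col1a2, Thy1, Twist2, Pdgfrb and Prrx1) had a Pol II promoter peak in both MEF lists and none in mESCs, and their summed fold was 146 in WT and 70.4 in KO MEFs. Of 6 pluripotency genes, 5 had promoter peaks in each mESC list, and in MEFs 1 had one in WT (Klf4) and 2 in KO (Klf4 and Tfcp2l1). The defining Pou5f1, Sox2 and Nanog had none in either MEF list. Of 6 epithelial or mesothelial markers, Upk3b and Msln had a promoter peak in KO MEFs (18.1 and 10.2), which gave the list a summed fold of 28.2 in KO against 0 in WT, while Epcam, Cdh1, Krt8 and Krt18 had none in either MEF list. Of 5 endothelial or blood markers, 2 had a peak in WT MEFs and 1 in KO MEFs, with summed folds of 5.33 and 4.31. The 4 Y-linked genes examined had promoter peaks in the WT MEF list and in none of the other Pol II lists. The part of these differences between the 2 MEF libraries in the values below was not tested.

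Does Pol II sit at the promoters of the 10 genes, and does it stay there without ATXN7L3? In WT MEFs 9 of the 10 had a Pol II promoter peak, that is at least 1 bp of peak within 1000 bp of the TSS, against 54.1% of all protein-coding genes. In KO MEFs 7 of the 10 had one, against 51.1%. The fold, the linear enrichment over the local background at the summit that the authors' peak caller gives, had a median of 26.6 over the 9 genes in WT MEFs against 13.2 over all promoters with a peak. Postn and Eln had no KO peak, which makes 2 of 9, beside 8.16% of all promoters with Pol II in WT. The loss at Postn was the reason the list was chosen, so this count was partly fixed in advance. Besides Postn, only Eln lost its peak. In 4 of the 7 genes with both peaks the KO fold was at most 0.5 of the WT fold, beside 7.47% of all promoters with both. By the start of the gene record the KO fold was lower in all 7, as it was in 67.7% of all promoters. The 7 include Thbs1, whose summit lies behind the gene end, and not Sparc, which had the higher fold in KO at its RefSeq start. The log2 ratio of KO to WT fold had a median of -0.23 over all promoters with both peaks and of -1.22 over the 7.

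**Figure D1:**
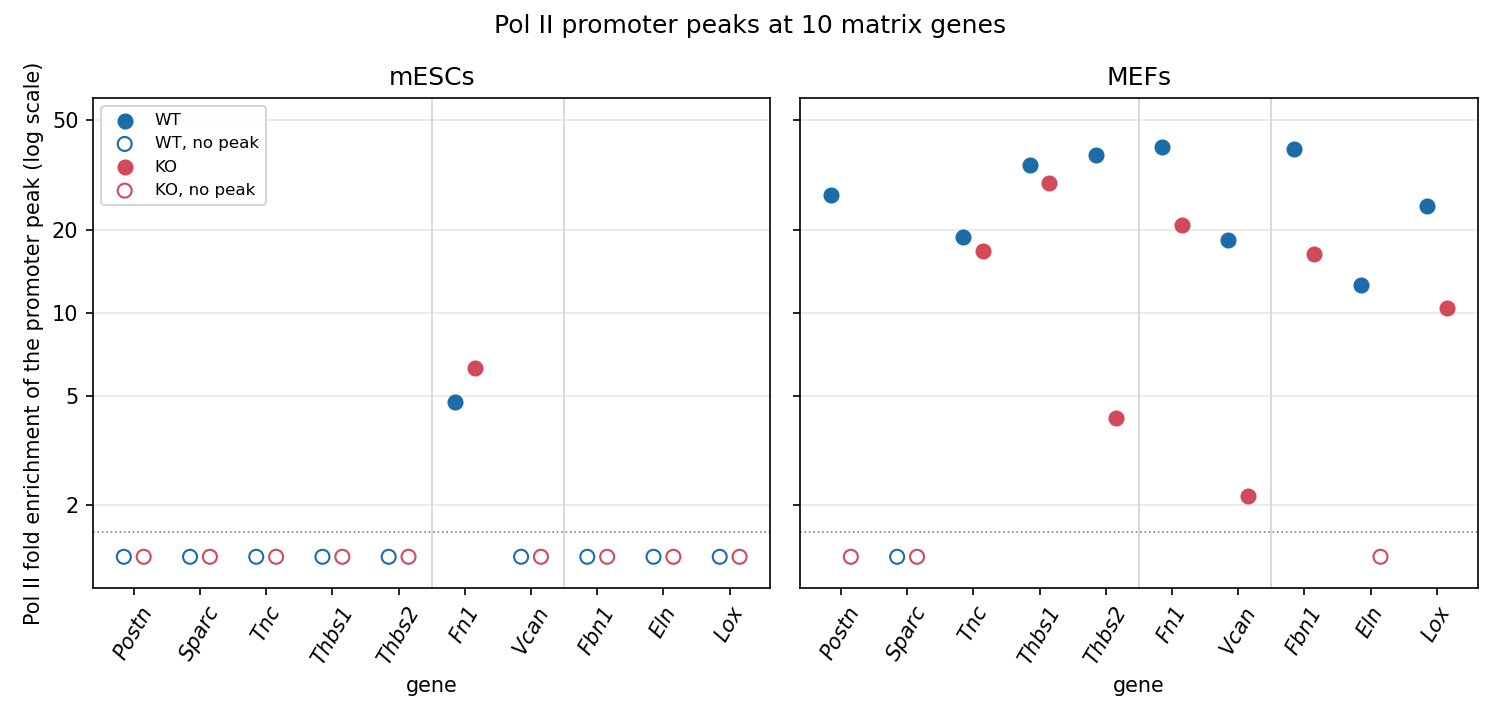
Pol II fold enrichment of the promoter peak (log axis) of each gene in mESCs (left) and MEFs (right), 1 library per point, WT in blue and KO in red. Open circles below the dotted line mark lists without a promoter peak. In MEFs 9 genes have a WT peak and 7 a KO peak, and each KO point lies below its WT point, while in mESCs only Fn1 has peaks.

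Postn, whose product binds collagen and integrins, had its WT peak with a fold of 26.6, above 94.4% of all promoter peaks of that list. The peak was 7316 bp wide, had a -log10 q of 237 and its summit lay 29 bp past the TSS, in an exon. In KO MEFs, in WT mESCs and in KO mESCs there was no peak within 1000 bp, and the nearest one was 331207, 331349 and 373490 bp from the TSS. The Postn locus was thus without Pol II peaks in 3 of the 4 lists. A second, smaller WT peak touched the promoter window, with its summit at -1100 bp and a fold of 4.33.

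The other matricellular genes fell into different patterns. Tnc had a fold of 18.8 in WT and 16.7 in KO MEFs, a log2 ratio of -0.18 that is close to the median of all promoters. Thbs2 had 37.4 in WT, above 99.4% of promoter peaks, and 4.15 in KO, above 6.60%. Its log2 ratio was -3.17, and only 3 of the 10892 promoters with both peaks had a lower one. The KO peak of Thbs2 was 442 bp wide where the WT peak was 3410 bp, with both summits 198 bp past the TSS.

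Thbs1 is listed with 34.2 in WT and 29.5 in KO, but these folds do not belong to its start. A single peak, 22911 bp wide in WT and 22182 bp wide in KO, spanned the whole gene, and its summit lay 17350 and 17264 bp past the TSS, behind the gene end. Sparc had no peak in the window in any list, the nearest in MEFs being 1475 bp away in WT and 2467 bp in KO. The gene record of Sparc starts 3103 bp upstream of its RefSeq start, and around that RefSeq start Pol II peaks had a fold of 21.5 in WT and 32.9 in KO MEFs. Their summits lay 282 and 261 bp past the RefSeq start. By that start Sparc was thus occupied in both genotypes and had the higher fold in KO.

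Fn1, which encodes the adhesive glycoprotein that integrins bind in early matrix, had the highest WT fold of the 10. It was 40.0 in WT and 20.8 in KO MEFs, a log2 ratio of -0.94. The WT peak ran over 17553 bp and the KO peak over 5608 bp. Vcan had 18.4 in WT and 2.16 in KO, a log2 ratio of -3.09 with 4 promoters lower. The KO call at Vcan was a peak of 285 bp with a -log10 q of 1.51, near the lowest -log10 q of that list (1.33), and it disappeared when 3 was required. In the KO list 2 more peaks followed at the start of the gene, with summits 2201 and 2908 bp past the TSS and folds of 4.58 and 5.14. With a promoter of 5000 bp to either side, or with the start of any annotated transcript, the log2 ratio of Vcan was -1.84.

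Of the elastic fibre genes, Fbn1 had a fold of 39.2 in WT and 16.3 in KO MEFs, a log2 ratio of -1.27. Its summits lay 1637 and 1660 bp past the TSS of the gene record, which is 82 and 105 bp past its RefSeq start. The KO peak began 883 bp past the TSS, so among the genes with a peak in the window Fbn1 entered it by the narrowest margin. Sparc, with 1475 bp in WT MEFs, was the gene that missed it by the least. Lox had 24.4 in WT and 10.4 in KO, a log2 ratio of -1.22 with summits 520 and 462 bp past the TSS. Eln, the elastin gene itself, had the lowest WT fold of the 9 with 12.6, above 46.5% of promoter peaks, and no KO peak nearer than 58267 bp. Of the 6341 promoters with a WT fold at least as high as that of Eln, 0.804% had no KO peak.

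**Figure D2:**
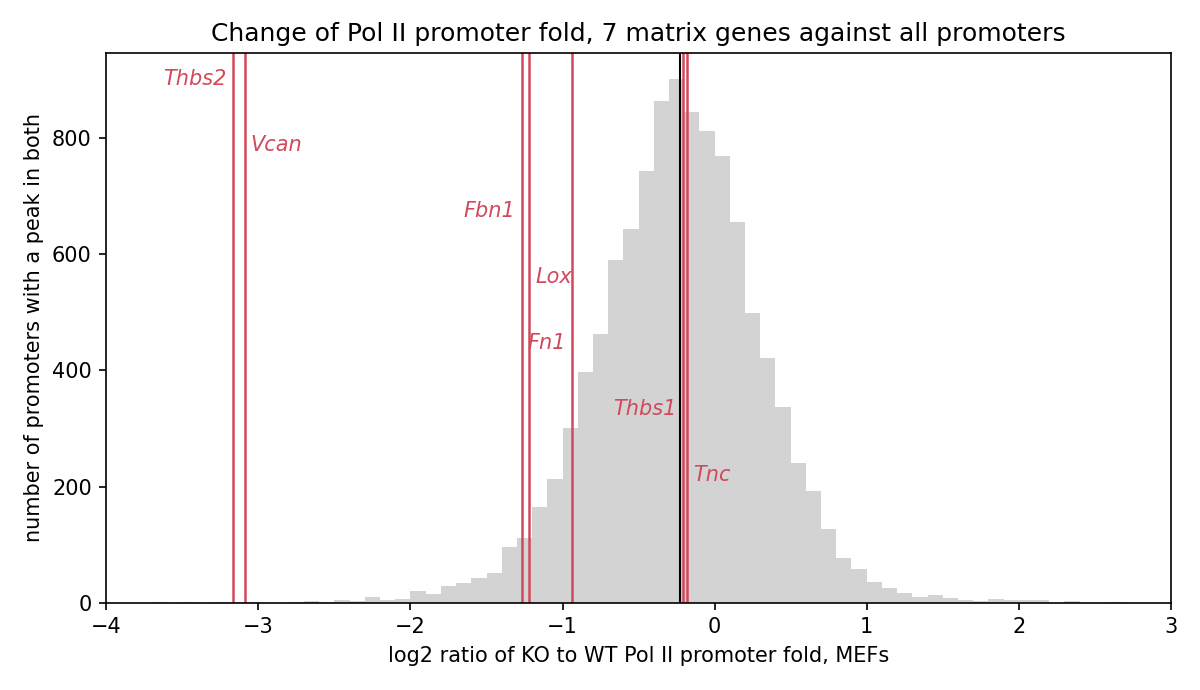
Histogram of the log2 ratio of KO to WT Pol II promoter fold in MEFs over the 10892 promoters with both peaks (grey), with the median of all at -0.23 (black line) and the 7 matrix genes with both peaks (red lines). Tnc and Thbs1 lie at the centre, Fn1, Lox and Fbn1 on the lower flank, and Vcan and Thbs2 beyond -3.

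In mESCs, Pol II promoter peaks were found at 1 of the 10 genes in WT and 1 in KO, against 33.9% and 31.3% of all genes. The gene was Fn1 in both lists. Its fold was 4.73 in WT and 6.28 in KO, a log2 ratio of 0.41 where the median over all promoters was 0.03. In mESCs, 22.6% of all promoters occupied in WT had no KO peak. At the RefSeq start of Sparc, KO mESCs had a peak with a fold of 3.90 and a -log10 q of 7.30 and WT mESCs had none. The other 8 genes had no Pol II promoter peak in mESCs at the start of the gene record, and the 5 of them with a RefSeq start had none there either.

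The Pol II peaks beyond the promoter were then measured as the share of the gene body, from 1000 bp past the TSS to the gene end, that lies in peaks. In WT MEFs all 10 genes had such peaks, against 42.4% of all genes, and in KO MEFs 7 had them, against 34.0%. Over the 9 genes with a WT promoter peak the median share was 84.1% in WT and 1.53% in KO, against 1.33% and 0.0807% over all genes with a WT promoter peak. The share was lower in KO in 9 of the 10, beside 76.2% of all genes with body peaks in either list. It fell to at most 0.5 of the WT share, or to 0, in 5 of 10, beside 54.0% of all genes covered in WT. The number of such falls among the 10 was thus near the background. This count is not matched for WT share, whose median was 1.33% over all genes with a WT promoter peak.

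At Postn, 84.1% of the body lay in peaks in WT MEFs and none in KO. The 18 WT body peaks were followed by a further rise behind the gene end, where a peak with a fold of 15.3 had its summit 859 bp past the end. Thbs2 went from 78.8% to 0% and Fbn1 from 57.2% to 1.07%, with 143 body peaks in WT and 2 in KO. Eln went from 25.1% to 0%. At Fbn1 the promoter fold, above 99.6% of all promoter peaks in the WT list, was above 75.6% in the KO list, while nearly all peaks of the 207 kb body were missing.

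At the remaining genes other than Vcan most of the body stayed in peaks. Thbs1 had 100% in both genotypes, Sparc 93.3% in WT and 90.4% in KO, and Fn1 99.4% and 87.2%. Tnc went from 89.7% to 68.4% and Lox from 87.9% to 54.0%. The number of body peaks rose at Tnc from 34 to 72 and at Fn1 from 4 to 35 where the covered share fell, the KO lists holding more and narrower peaks there. Vcan had little body coverage in either, 4.62% in WT and 1.53% in KO.

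Behind the gene end Pol II peaks were missing in KO MEFs at Postn, Thbs2, Vcan, Fbn1 and Eln. Within 5000 bp past the end, all 10 genes had Pol II peaks in WT MEFs, against 39.4% of all genes, and Sparc, Tnc, Thbs1, Fn1 and Lox had them in KO MEFs, 5 of 10 against 28.2%. Lox had a fold of 32.1 in WT and 15.4 in KO there, with summits 1445 and 1459 bp past the end, and in both genotypes this was above its promoter fold. Fn1 had 19.2 and 14.0, with summits 2144 and 2150 bp past the end. In mESCs Fn1 and Sparc, 2 of 10, had peaks behind their ends in both genotypes, against 20.7% of all genes in WT and 13.4% in KO. The folds were 6.86 in WT and 3.55 in KO at Fn1 and 6.55 and 4.27 at Sparc, although Sparc had no peak at all over its body in WT mESCs. Over the body, 1 of the 10 genes had a peak in WT mESCs (Fn1) and 1 in KO mESCs (Sparc), against 20.7% and 13.7% of all genes.

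**Figure D3:**
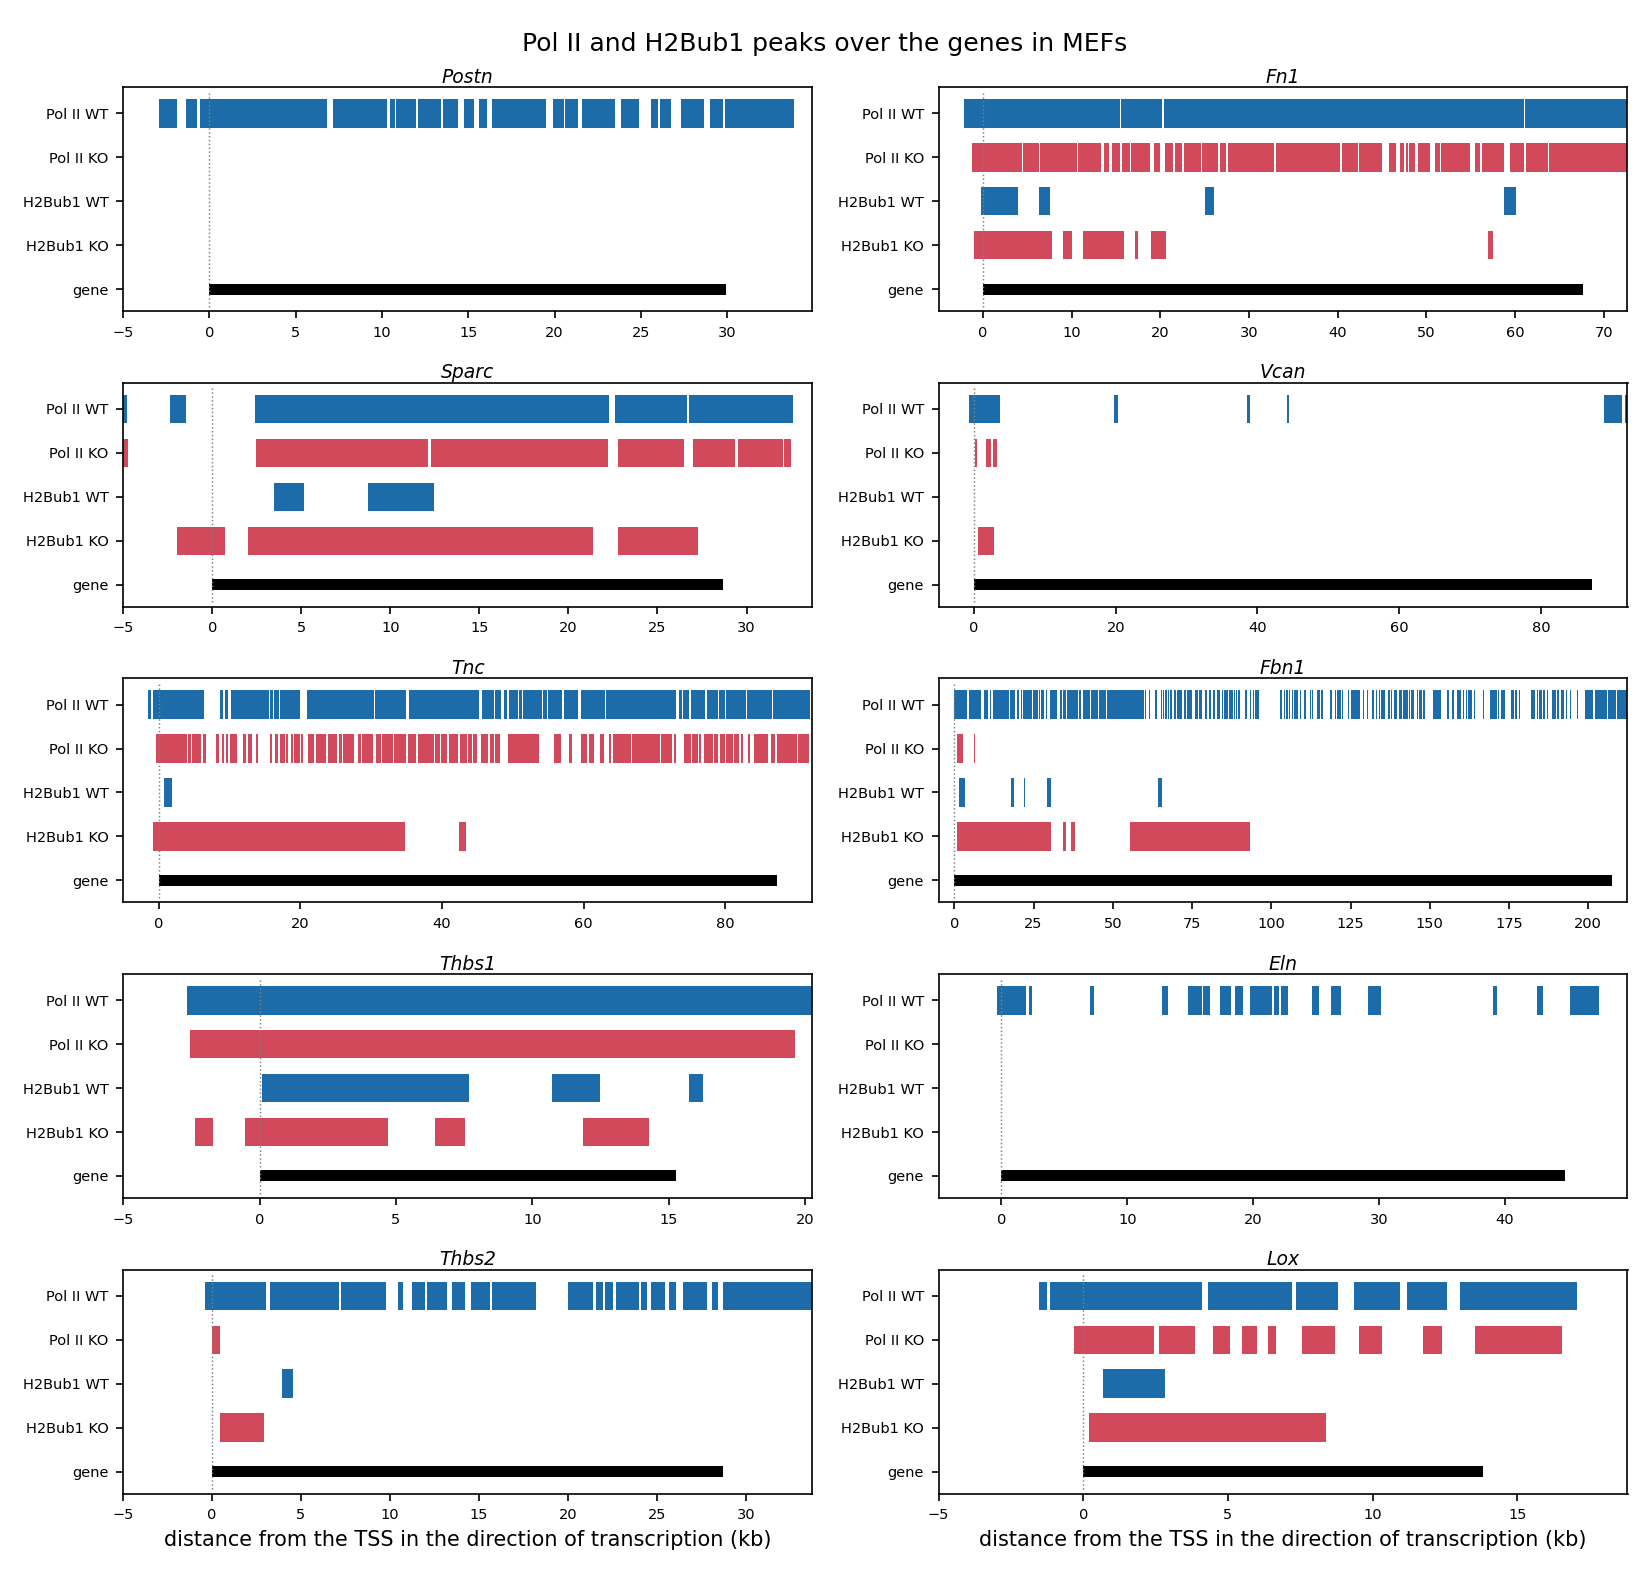
Pol II and H2Bub1 peaks in MEFs from 5 kb before to 5 kb after each gene, as distance from the TSS of the gene record (kb) in the direction of transcription, WT in blue and KO in red. Each bar is a called peak and the black bar is the gene. Postn and Eln have no bars in the KO rows, and Fbn1 and Thbs2 keep only peaks near the start in the Pol II KO row. The first H2Bub1 KO bars of Tnc, Fbn1 and Lox begin near the start and end within the gene. Tnc and Fbn1 have further H2Bub1 KO bars downstream.

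H2Bub1, which ATXN7L3-dependent enzymes remove, was found over the body of 7 of the 10 genes in WT MEFs and 8 in KO MEFs, against 30.4% and 53.0% of all genes. With a -log10 q of at least 3 it was 2 in WT and 6 in KO. With at least 10% of the body it was 4 and 6. The shares over all genes are not given for these settings. The covered share was higher in KO at 7 genes and lower at 1, and the remaining 2 had none in either genotype. Of all genes, 52.6% had a higher share in KO. Among genes with H2Bub1 in WT or KO the gain was near universal, with 98.7% higher and 0.949% lower in KO, so 7 of the 8 covered genes is close to the background. Over the 9 genes with a WT promoter peak the median share was 2.14% in WT and 23.6% in KO, against 0.879% and 46.3% over all genes with a WT Pol II promoter peak.

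Sparc had the highest KO share, 85.8% against 18.7% in WT, and its widest KO peak measured 19.4 kb. Lox went from 15.4% to 59.4% and Tnc from 1.39% to 40.9%. At Tnc the KO peak spanned 35.5 kb, from -792 to 34756 bp around the TSS, and the rest of the gene was nearly free of it although Pol II peaks ran on to the gene end. Fbn1 went from 2.72% to 33.6%, mostly in 2 broad peaks of the first part of the gene, of which the wider measured 37.7 kb. With a -log10 q of at least 3 its gain was 14.8 in place of 30.8 percentage points. The KO share of Fbn1 thus rose in the gene whose body had lost nearly all Pol II peaks. Fn1 went from 11.2% to 23.6%, a gain of 12.4 percentage points that was 5.71 with the stricter q and 7.61 with equal numbers of peaks.

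Of the genes with a gain, the smallest were at Thbs2 and Vcan, which had the largest falls in promoter fold among the 7 genes with both Pol II peaks. Thbs2 went from 2.14% to 8.60% and Vcan from 0% to 2.73%, each with 1 KO peak of 2.47 and 2.38 kb that began 435 and 507 bp past the TSS. With a -log10 q of at least 3 neither gene had a gain (0 percentage points each), which left 5 genes with a higher share in KO in place of 7. The gain at Thbs2 turned into a fall of 2.14 percentage points when both lists were reduced to equal numbers of peaks. Postn and Eln had no H2Bub1 peak in either MEF list. Of all promoters that had Pol II in WT and not in KO, 73.7% likewise had no H2Bub1 in either, while it was 11.5% over every promoter occupied in WT.

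Thbs1 was the gene that differed in direction. Its covered share was 61.1% in WT, the highest of the 10 in that list, and 54.0% in KO, whereas a lower share in KO was found at 0.506% of all genes. The difference was -7.10 percentage points, and it was -19.0 with a -log10 q of at least 3 and -14.4 with equal numbers of peaks. The -19.0 hangs on the cutoff: a WT peak with a -log10 q of 3.01 was just kept, and a KO peak with 2.82 was left out. Weighted by length, its peaks had a mean fold of 3.17 in WT against 3.29 in KO. The highest -log10 q was 3.01 in WT but 18.3 in KO. The widest peak was 7.59 kb in WT and 5.22 kb in KO. In the KO list this peak began at -524 bp from the TSS, while in WT it began at 104 bp. The shorter share in KO thus stood beside a stronger call around the start.

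**Figure D4:**
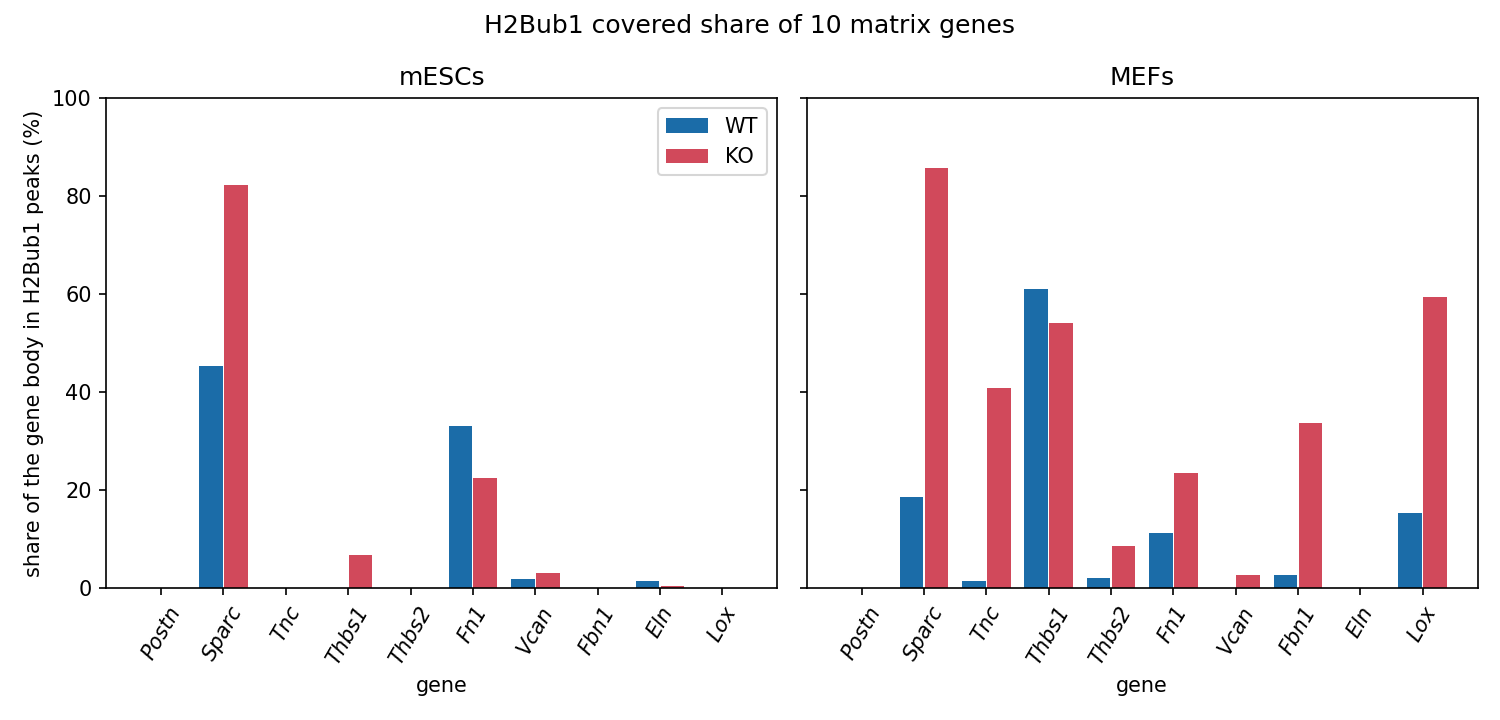
Share of the gene body (%) in H2Bub1 peaks in mESCs (left) and MEFs (right), WT in blue and KO in red, 1 library per bar. In MEFs 7 genes have the higher bar in KO, Thbs1 the lower one (54.0% against 61.1%), and Postn and Eln have no bar. In mESCs only Sparc and Fn1 exceed 10% in either genotype.

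In mESCs H2Bub1 peaks were called over 4 of the 10 genes in WT and 5 in KO, against 53.6% and 60.8% of all genes. The share was higher in KO at 3 and lower at 2 of the 5 covered genes, beside 83.6% and 14.7% of all genes covered in either list. Sparc had 45.3% in WT and 82.2% in KO, a difference of 36.9 percentage points that was 63.8 with a -log10 q of at least 3. Fn1, the only one with a Pol II promoter peak at the gene record start in mESCs, had 33.1% in WT and 22.5% in KO. This difference of -10.6 percentage points was -0.130 with a -log10 q of at least 3. The peak over the TSS of Fn1 ran from -28 to 2368 bp in WT and from -2837 to 6321 bp in KO. Thbs1 had 0% in WT and 6.81% in KO, Vcan 1.81% and 3.16%, and Eln 1.53% and 0.400%, and with the stricter q none of these 3 genes had a peak in either genotype. Postn, Tnc, Thbs2, Fbn1 and Lox had no H2Bub1 peak in mESCs of either genotype.

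**Figure D5:**
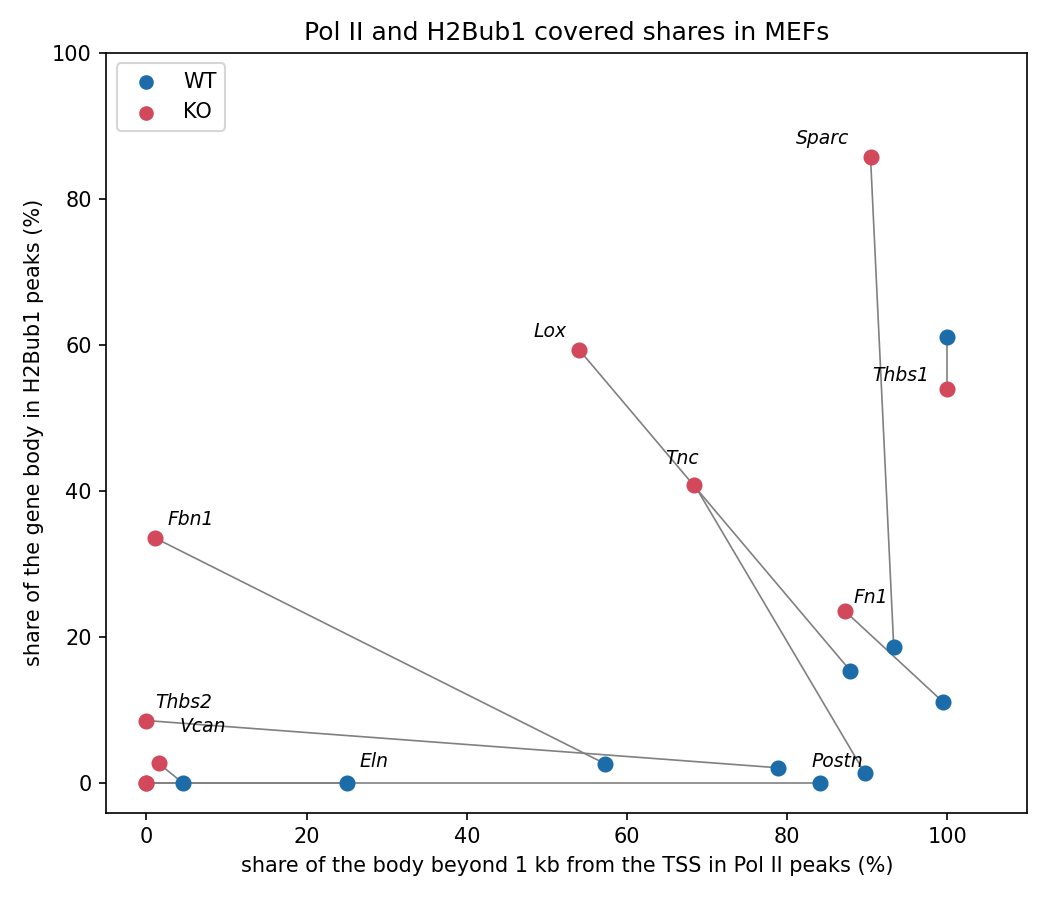
Share of the body beyond 1 kb from the TSS in Pol II peaks (horizontal, %) against the share of the gene body in H2Bub1 peaks (vertical, %) in MEFs, with a line from WT (blue) to KO (red) for each gene. Lox, Tnc, Fn1 and Fbn1 move up and to the left, Sparc moves up, and Postn and Eln move left along 0%, where their KO points coincide.

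The wider matrix was described through a list of 52 other non-collagen matrix genes. In WT MEFs 40 of them had a Pol II promoter peak, against 54.1% of all genes, and in KO MEFs 28, against 51.1%. None had one in KO alone. The 12 genes with a peak in WT alone make 30.0% of the 40, beside 8.16% of all promoters. They were the matricellular genes Tgfbi (WT fold 9.55), Ccn3 (7.77) and Ccn5 (5.31), the elastic fibre genes Mfap4 (15.1), Fbln1 (5.85) and Ltbp4 (4.95), and, among glycoproteins and proteoglycans, Aspn (23.2), Nid1 (8.46), Hapln1 (3.30), Prelp (3.18), Vtn (3.18) and Fmod (2.96). With both a missing peak and a KO fold of at most 0.5 of WT counted, 22 of the 40 (55.0%) were lower. Over all promoters occupied in WT it was 15.0%. Of the genes followed here it was 6 of 9, including Postn, whose loss was the reason for the list. The KO fold was lower than in WT at 26 of the 28 genes with both peaks and higher at 2, beside 67.7% lower over all promoters.

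By role, the median log2 ratio of the other matrix genes was -0.90 over 7 matricellular genes with both peaks, -0.95 over 13 elastic fibre genes and -0.61 over 8 glycoproteins and proteoglycans, beside -0.23 over all promoters. H2Bub1 covered 14 of the 52 in WT MEFs and 26 in KO MEFs, with a higher share in KO at 26 and a lower one at 1, beside 98.7% and 0.949% of all genes covered in either list. Over all genes H2Bub1 covered 30.4% in WT and 53.0% in KO, so the KO count was near the background. In mESCs 12 of the 52 had a Pol II promoter peak in WT and 7 in KO, against 33.9% and 31.3% of all genes. The peak was missing in KO at 5 of these 12 (41.7%), beside 22.6% of all promoters occupied in WT. These 5 had WT folds between 2.79 and 4.64, where the median over all WT promoter peaks was 4.39. No share over promoters of like fold was taken, so these shares are not matched. The H2Bub1 share in mESCs was higher in KO at 21 of the 52 and lower at 15, and the others had none in either genotype. Of all genes covered in either list, which leaves out such uncovered genes, 83.6% were higher and 14.7% lower.

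The calls of Postn in the 8 lists, Pol II at the promoter in WT MEFs and nothing in the other 7, were shared by 303 genes including Postn. Postn had the highest WT fold of these. The next 5 were Apof with 23.8, Mgp, whose product inhibits calcification of the matrix, with 23.4, Aspn, a small leucine-rich proteoglycan, with 23.2, Mab21l1 with 17.0 and Lrrc17 with 16.1. In WT MEFs Pol II peaks covered 98.5% of Mgp, 82.1% of Mab21l1, 44.8% of Apof, 22.7% of Aspn and 14.0% of Lrrc17, and in KO MEFs 7.75% of Apof and 0% of the other 4. Of the 10 matrix genes, Eln was nearest to Postn, differing from it in 2 of the 8 lists, and Fn1 was farthest, differing in 7.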

How the data were processed

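Antibody-bound DNA from 8 of the 16 labelled samples was analysed, 1 library per group. Inputs and serine-2-phosphorylated Pol II libraries were not used here. The authors aligned single-end reads to mm10, and the submitters' processing notes name bcl2fastq 2.17.1.14, Bowtie 1.0.0 and MACS2 2.1.1.20160309. Peaks were called per library, narrow for Pol II and broad for H2Bub1, and the control and thresholds are not given in the sources used here. The deposited fold is a linear ratio over each library's local background, at the summit for narrow and as a mean for broad peaks. The authors' lists also hold a display score, which was not used. The deposited p-value and q-value of a peak are given as -log10. A deeper library gives more and wider peaks, and the peak lists hold no read counts, so no interval or floor could be given. A KO to WT ratio divides folds of separately called lists, which may differ in depth, so it is read beside the median ratio of all promoters and gives no absolute change.

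Peaks were set against GENCODE M21 protein-coding genes with an overlap of at least 1 bp. Where several peaks met the window, the highest fold was taken. A gene body ran from the TSS of the gene record to its end. The members and gene lists were chosen with earlier results of these data known. Named besides the 10 genes are other matrix genes with a promoter peak in 1 genotype only in MEFs, and the 5 genes most like Postn: equal calls in all 8 lists, highest WT MEF fold. Results were recomputed with peaks of a -log10 q of 3 or more, with WT and KO lists cut to the same length by -log10 p, with promoters of -100 to 300 bp or 5000 bp either side, with any annotated transcript start, with summits inside the window, with at least 10% of the gene body for H2Bub1, and, added after the data were seen, RefSeq starts. Functions were tested on simulated peaks. Python 3.11.15, numpy 2.4.6, pandas 2.3.3 and matplotlib 3.10.9 were used.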

Additional observations from a re-analysis of the deposited data

Results flagged for a closer look

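Some values moved in opposite directions in the mESC and the MEF libraries. With 1 library per group the difference between the cell types was not tested. The H2Bub1 covered share of Fn1 was lower in KO than in WT mESCs by 10.6 percentage points (a difference of -10.6) and higher in KO MEFs by 12.4. With a -log10 q of at least 3 the mESC difference was -0.130 and the MEF difference 5.71. Its Pol II promoter fold had a log2 ratio of KO to WT of 0.41 in mESCs and of -0.94 in MEFs. The H2Bub1 share of Thbs1 was higher in KO mESCs by 6.81 percentage points and differed by -7.10 in KO MEFs. With the stricter q the mESC difference was 0 and the MEF difference -19.0, so the opposite directions at Thbs1 were not found there. The -19.0 rests on a WT peak with a -log10 q of 3.01, just above the cutoff. The Pol II covered share of the Sparc body was higher in KO mESCs by 1.10 percentage points, from a single peak, and differed by -2.89 in KO MEFs.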

How the results depend on the processing

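Of 92 counts over the 10 genes recomputed under the alternatives, 79 stayed within 1.5 times the value given. A -log10 q of at least 3 gave 2 genes with H2Bub1 in WT MEFs in place of 7, 2 in each mESC genotype in place of 4 and 5, and 1 gene each with a higher and a lower share in KO mESCs in place of 3 and 2. H2Bub1 over at least 10% of the body gave 4 genes in WT MEFs and 2 in each mESC genotype. With equal numbers of peaks the share was lower in KO MEFs at 2 genes in place of 1, Thbs2 having changed sign (-2.14 percentage points). A promoter of 5000 bp either side, or at any annotated transcript start, gave 2 genes with a KO peak in mESCs and 1 in KO alone, which was Sparc. Single genes also changed their call in MEFs: Vcan lost its KO peak at the stricter q, Fbn1 lost it in the narrow promoter, Sparc gained both peaks at the wider or transcript-based promoter and at its RefSeq start, and Thbs1 and Fbn1 lost both where the summit had to lie in the window. Beyond the alternatives' own construction the cause was not tested. No paired analysis was possible because each group holds 1 library. Limits are the single libraries, the depth, which the lists do not give, calls in place of read counts, and MEF libraries that also differed in mesothelial and Y-linked promoter peaks.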
